A study of Mus musculus with 55 samples.

Results

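Ifitm1, Ifitm2, Ifitm3, Ifitm6, Ifitm10 and Ly6e are small membrane protein genes that were followed across blood-forming cells of mouse bone marrow. They are 6 of the 55421 genes of the first count table and were chosen by symbol, as Ly6e and 5 members of the Ifitm family; Ifitm5 and Ifitm7, which that table also lists, were read as relatives only. The first set held 46 bulk RNA-seq libraries of 6 sorted populations from WT and Tet2-KO mice, with 4 libraries in each group except WT stem cells, which had 3 of LT-HSC and 3 of ST-HSC. A second set held 9 LT-HSC libraries, 3 each from WT, Sting-KO and Tet2/Sting-dKO (DKO) mice, and in its table of 35973 genes all 6 symbols were present. Tet2-KO mice were Tet2f/f, Mx1-Cre animals on a C57BL/6 background in which poly(I:C), an imitation of viral RNA, was injected from 4 weeks of age to switch on Cre. First-set mice were analysed 16 weeks after that induction, while the sources used here do not state the time for the second-set libraries themselves, though other assays of those genotypes were done later after induction. DKO mice carried Tet2f/f, Mx1-Cre and a germline Sting-/- deletion, and Sting-KO mice were Sting-/-. The Mx1 promoter that drives Cre is itself switched on by interferon and acts beyond blood cells, and the sources do not say plainly whether WT mice also received poly(I:C). Replicate numbers run from 2 to 5 in the first set and from 1 to 3 in the second.

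The sorted populations run from stem cells to committed progenitors. LT-HSCs (long-term stem cells) and ST-HSCs (short-term stem cells) share the Lin-cKit+Sca1+ gate and were parted by CD150, CMPs are common myeloid, GMPs granulocyte-macrophage and MEPs megakaryocyte-erythroid progenitors, and CLPs are common lymphoid progenitors. About 200 cells went into each library by the labels, so a level in these bulk samples cannot tell fewer cells of a type from less RNA per cell.

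IFITM proteins sit in the plasma and endosomal membranes, where IFITM1, IFITM2 and IFITM3 hinder the fusion of enveloped viruses with the cell. Their genes lie side by side, are induced by type I and type II interferon, and are kept on without interferon in many stem cells. Ly6e encodes a GPI-anchored surface protein of the Ly6 family that is also interferon-inducible and acts on virus entry, and its relative Ly6a encodes Sca-1, a marker used in the stem cell gate. Interferon signals through the receptor chains Ifnar1 and Ifnar2 or Ifngr1 and Ifngr2 and the kinases Jak1, Jak2 and Tyk2 to transcription factors that bind the interferon-stimulated response element (ISRE) or the gamma-activated site (GAS).

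Depth ran from 50458473 to 102148079 counts per library in the first set (median 70118186.5) and from 26775728 to 78680749 in the second (median 40640920). Levels are given as CPM, counts relative to the library's total as scaled by edgeR's TMM factors, and a gene with at most 3 counts in a library is taken as at the floor; this covers counting error only. The targeted genes did not check the labels: Tet2 lay at 6.05 to 72.5 CPM in Tet2-KO and 2.33 to 41.2 CPM in WT libraries, and Tmem173, the Sting gene, at 0 to 121 CPM in Sting-KO, 0 to 26.1 CPM in DKO and 0 to 46.1 CPM in WT libraries of the second set. Whole-gene counts can include transcripts without a deleted exon, and exons were not tested, so groups are named by their labels. Summed LT-HSC markers were 328 to 706 CPM in LT-HSCs and 210 to 461 in ST-HSCs, against at most 89.5 in the other populations, so they set stem cells apart but not LT-HSCs from ST-HSCs. Markers of GMPs and MEPs were high in their own gates, for GMPs at 31422 to 44456 CPM and for MEPs at 13234 to 19132 CPM. CLP libraries held their own markers at 451 to 2262 CPM (at most 207 elsewhere) but also B cell markers at 623 to 278327 CPM, against at most 187 CPM elsewhere, and their scaling factors were 0.546 to 0.709 in WT and 0.736 to 1.08 in Tet2-KO, against 0.949 to 1.18 in the other populations.

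By the GENCODE vM21 annotation of mm10, Ifitm2 (ENSMUSG00000060591, chr7:140954837-140955987, minus strand), Ifitm1 (ENSMUSG00000025491, chr7:140967221-140969825, plus strand), Ifitm3 (ENSMUSG00000025492, chr7:141009586-141010770, minus strand) and Ifitm6 (ENSMUSG00000059108, chr7:141015699-141017924, minus strand) lie within 63.1 kb. Ifitm10 (ENSMUSG00000045777, chr7:142325837-142373753, minus strand) lies 1308 kb further along the chromosome. Ly6e (ENSMUSG00000022587) is at chr15:74955051-74959905 on the plus strand, in a cluster of Ly6 genes. The 100 bases just before the first annotated base of Ifitm2 and Ifitm3, and for Ifitm1 a stretch before RefSeq's start, which lies inside the gene as annotated here, are shown because these 3 genes had the highest levels of the family; the sequences are RefSeq's on GRCm38.p6, read 5′ to 3′ on the strand of the gene, with ISRE cores in capitals.
Ifitm1 (chr7:140967928-140968027, plus strand): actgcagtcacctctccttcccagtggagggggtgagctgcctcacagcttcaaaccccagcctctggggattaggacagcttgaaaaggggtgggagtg
Ifitm2 (chr7:140955988-140956087, minus strand): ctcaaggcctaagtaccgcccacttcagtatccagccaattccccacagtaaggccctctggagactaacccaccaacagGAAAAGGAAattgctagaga
Ifitm3 (chr7:141010771-141010870, minus strand): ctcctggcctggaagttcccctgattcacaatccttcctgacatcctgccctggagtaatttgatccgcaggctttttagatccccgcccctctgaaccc

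Motifs were searched on both strands in the RefSeq window from 250 bases before to 50 after each start, with GAAANNGAA as the ISRE core and TTCNNNGAA as the GAS. Ifitm2 had 1 ISRE core, at bases -46 to -38 from its RefSeq start. Ifitm3 had none upstream but 2 ISRE cores at bases 3 to 11 and 20 to 28 of the transcript, with a GAS between and partly over the second at bases 14 to 22, all within a stretch of 28 bases.
Ifitm3 (chr7:141010717-141010744, minus strand), ISRE cores and GAS in capitals: agGAAAAGGAAacTTCTGAGAAACCGAA
The ISRE core of Ifitm2 and the first of Ifitm3 have the same 9 letters, GAAAAGGAA. Ifitm1 had neither motif in its window, Ifitm6 had a GAS at bases -10 to -2 and no ISRE core, and the 3 windows of Ifitm10 had neither. Of all 32851 windows of this length, 8.56% held an ISRE core, 0.624% held 2 or more and 8.3% held a GAS. Among 40 other interferon-stimulated antiviral genes, 29 had a window and 16 of their 34 windows (47.1%) held an ISRE core. The GAS was in 7 of those 34 windows (20.6%), overlaps with the ISRE core included. With 1 mismatch allowed, 65.5% of all windows matched the ISRE core, so only exact matches are given. The tables of sequences were searched for Ly6e as well, which had no entry.

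The counts of Ifitm2 could not be read alone in every library. Gm45717 (ENSMUSG00000110104, chr7:140949222-140955937, minus strand) is a gene model that overlaps Ifitm2 on the same strand. In 37 of the 46 first-set libraries its counts were at most 0.00198 times those of Ifitm2, or 2.00 CPM at most. In the other 9 libraries, 7 of WT and 2 of Tet2-KO mice, they were 0.916 to 0.984 times those of Ifitm2, between 263.8 and 685.3 CPM. All 3 WT LT-HSC libraries were among these 9 (Ifitm2 at 501, 590 and 665 CPM and Gm45717 at 492, 561 and 622 CPM in replicates 2, 3 and 5), against 1 of 4 Tet2-KO LT-HSC libraries (replicate 3, 503 and 461 CPM). The others were WT ST-HSC replicates 2 and 3, WT GMP replicate 5, Tet2-KO GMP replicate 2 and WT MEP replicate 3. How reads over both models were assigned is not given in the sources used here and was not tested. Levels of Ifitm2 are given as the sum with Gm45717 in the first set, and tests are given both ways. If reads were counted under both models in those 9 libraries, the sum holds them more than once there. Gm45717 had no row in the second table. Ifitm1, Ifitm3, Ifitm6, Ifitm10 and Ly6e overlapped no gene with counts.

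**Figure D1:**
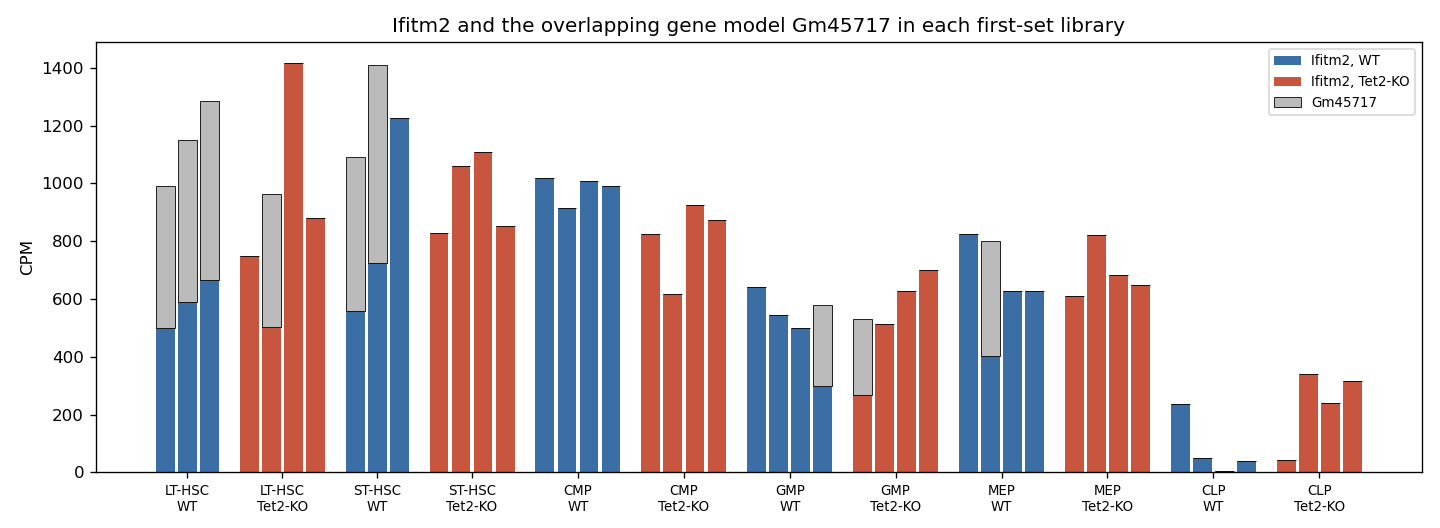
Each bar is 1 first-set library, with the level of Ifitm2 (CPM) in the genotype's colour and the level of Gm45717 (CPM) stacked on it in grey. Gm45717 reaches 263.8 to 685.3 CPM in 9 libraries, all 3 WT LT-HSC libraries among them, and at most 2.00 CPM in the other 37.

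The members differed in pattern across the populations. Ifitm1 and Ifitm3 were highest in stem cells and Ifitm2 was high in all populations but CLPs, Ly6e was highest in CLPs, while outside CMPs and GMPs Ifitm6 was above the floor in few libraries (2 of 8 of CLPs and 4 of 22 of stem cells and MEPs), as was Ifitm10 outside CLPs (7 of 38). All 6 genes differed among the 6 populations in WT libraries (edgeR quasi-likelihood F test over all genes, adjusted p from 7.67e-07 for Ly6e to 0.0214 for Ifitm10) and in Tet2-KO libraries (adjusted p from 1.01e-06 for Ifitm3 to 0.00856 for Ifitm2), where 44.6% and 40.2% of all tested genes did. Ifitm6 and Ifitm10 passed the low-count filter through the populations where they are high and are at 0 in most other libraries, so for them this test and the contrasts of populations are no support. Leaving out 1 replicate number in turn left 2 to 5 members called in WT, with Ifitm3 and Ly6e called each time; without WT replicate 5 only those 2 remained called. In Tet2-KO 4 to 6 were left, Ly6e dropping out without replicate 2 or 4 and Ifitm2 without replicate 4 or 5. With the replicate number as a block, Ifitm10 was no longer called in WT.

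Ifitm1, which encodes the member found mainly at the cell surface, fell stepwise from stem cells to progenitors. In WT LT-HSCs it was at 1497, 1696 and 2223 CPM in replicates 2, 3 and 5, and in WT ST-HSCs at 1325, 1213 and 1490 CPM, so the lowest LT-HSC library lay above the highest ST-HSC library. WT CMPs had 618, 404, 603 and 836 CPM, WT MEPs 202, 58.7, 263 and 166 CPM, WT GMPs 164, 88.5, 115 and 123 CPM and WT CLPs 275, 165, 0.723 and 1.20 CPM. The step from LT-HSC to ST-HSC did not overlap but reached only the smallest p that 3 against 3 libraries allow (exact permutation p = 0.1, two-sided, as all exact tests here). ST-HSCs did not overlap CMPs, nor CMPs MEPs (exact permutation p = 0.0286 each, the smallest possible), whereas MEPs, GMPs and CLPs overlapped (exact permutation p = 0.514 and 0.429 for neighbours). Tet2-KO libraries had 1318, 2053, 2686 and 1934 CPM in LT-HSCs, 1164, 2153, 1496 and 1212 in ST-HSCs and 532, 498, 403 and 481 in CMPs, with means of 169, 143 and 116 CPM in GMPs, CLPs and MEPs.

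Ifitm3, the member most studied for restriction of influenza virus, had nearly the same course. WT LT-HSC libraries had 1018, 1098 and 1343 CPM, WT ST-HSCs 738, 681 and 774 CPM and WT CMPs 331, 312, 362 and 370 CPM, with no overlap between neighbours (exact permutation p = 0.1 for LT- against ST-HSC and 0.0286 for ST-HSC against CMP). WT GMPs had 168, 122, 107 and 130 CPM, below every CMP library (exact permutation p = 0.0286). WT MEPs at 147, 97.7, 97.3 and 82.7 CPM and WT CLPs at 133, 21.3, 4.65 and 60.0 CPM overlapped their neighbours in the order (exact permutation p = 0.229 and 0.114). The Tet2-KO means kept this order for LT-HSC (1211 CPM), ST-HSC (805 CPM), CMP (315 CPM) and GMP (192 CPM), with CLP at 121 CPM and MEP at 113 CPM. There, however, the LT-HSC and ST-HSC libraries overlapped (exact permutation p = 0.143). ST-HSCs and CMPs did not, nor did CMPs and GMPs (exact permutation p = 0.0286 each).

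Ifitm2, which acts mainly from late endosomes, was less steep. Summed with Gm45717, its WT means were 1243 ± 159 CPM in ST-HSCs (SD, n = 3), 1143 ± 147 in LT-HSCs (n = 3), 984 ± 47.3 in CMPs, 720 ± 107 in MEPs, 566 ± 60.7 in GMPs and 83.3 ± 104 in CLPs (n = 4 each). Of neighbours in this order, ST-HSC overlapped LT-HSC and LT-HSC overlapped CMP libraries (exact permutation p = 0.5 and 0.0857), while every ST-HSC library lay above every CMP library. CMPs lay above every MEP library, and GMPs above every CLP library (exact permutation p = 0.0286 each). Read alone, Ifitm2 had its highest WT mean in CMPs (983 CPM) and only 585 CPM in LT-HSCs, so its order depended on the overlapping model, and the top places of ST- and LT-HSCs in the sum rest on 5 of those 9 libraries. In Tet2-KO the sums were 1002 ± 290 CPM for LT-HSC, 964 ± 143 for ST-HSC, 810 ± 134 for CMP, 691 ± 92.6 for MEP, 594 ± 86.2 for GMP and 234 ± 135 for CLP (n = 4 each), where of the neighbours in the order GMPs and CLPs did not overlap (exact permutation p = 0.0286). The LT-HSC and ST-HSC libraries lay above every GMP library, a pair of comparisons that was not tested.

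Ly6e had another order, with CLPs and GMPs on top. WT CLPs had 725, 922, 1047 and 1458 CPM, every one above the GMP libraries at 431, 457, 404 and 464 CPM, which in turn lay above the CMP libraries at 377, 206, 284 and 294 CPM (exact permutation p = 0.0286 for both steps). The size of the CLP step depended on the scaling: as counts over library totals, WT CLPs had 517 to 1001 and WT GMPs 455 to 508 CPM, a ratio of means of 1.34 in place of 2.36, still without overlap. Below them came WT LT-HSCs at 266, 329 and 214 CPM, ST-HSCs at 129, 206 and 254 CPM and MEPs at 106, 111, 202 and 206 CPM, where each neighbour in the order overlapped the next (exact permutation p = 0.714, 0.2 and 0.429). Tet2-KO means were 922 CPM (CLP), 529 (GMP), 452 (CMP), 336 (ST-HSC), 304 (LT-HSC) and 272 (MEP). Tet2-KO LT-HSC replicate 5 stood low at 65.9 CPM beside 351, 490 and 309 CPM.

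Ifitm6, whose expression is known from myeloid cells, was a low-level gene of the myeloid path. It was above the floor in all 16 CMP and GMP libraries, at 4.83 to 7.68 CPM in GMPs and 1.41 to 5.39 CPM in CMPs, and in 4 of 22 LT-HSC, ST-HSC and MEP libraries, with a highest value of 1.62 CPM. In CLPs it was seen in Tet2-KO replicates 3 (2.53 CPM) and 5 (13.6 CPM) and at 0 in the other 6; these 2 libraries had the highest summed GMP markers of the 8. Ifitm10, a distant relative with a longer gene that is not known as an antiviral factor, was mainly a CLP transcript here: 27.8, 5.36, 12.2 and 8.15 CPM in Tet2-KO and 0, 0.800, 24.9 and 21.9 CPM in WT. Outside CLPs it was above the floor in 7 of 38 libraries, the highest being 2.43 CPM in WT ST-HSC replicate 3. The floor of 3 counts was at most 0.0943 CPM in the WT CLP libraries, so a 0 there bounds the level and does not show that the transcript is absent.

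**Figure D2:**
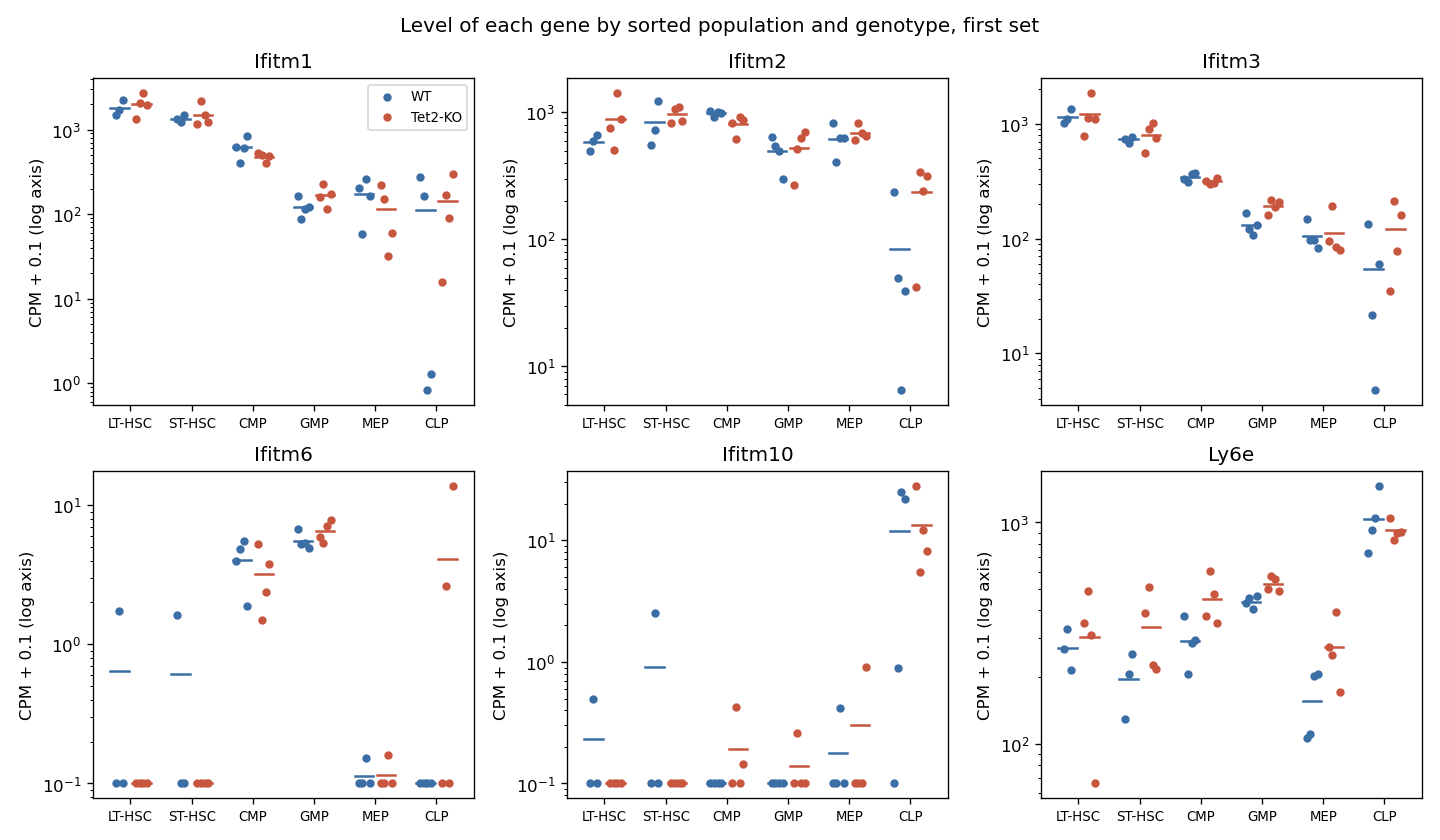
Each panel is 1 gene and each point 1 first-set library, with CPM plus 0.1 on a log axis over the 6 populations, WT and Tet2-KO in separate colours and bars at group means; Ifitm2 is drawn without Gm45717. Ifitm1 and Ifitm3 descend from LT-HSC (WT means 1806 and 1153 CPM) to the committed progenitors, Ly6e is highest in CLP (WT mean 1038 CPM), and Ifitm6 and Ifitm10 lie near 0 in most libraries.

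Per kilobase of exon, which allows levels to be compared between genes, WT LT-HSCs had 2099 ± 436 CPM per kb of Ifitm1, 1780 ± 261 of Ifitm3 and 117 ± 25 of Ly6e (SD, n = 3). In WT CLPs the order was turned, with 451 ± 135 CPM per kb of Ly6e against 128 ± 156 of Ifitm1 (n = 4). Ifitm2 per kb in WT LT-HSCs, read without Gm45717, was 933 ± 131 CPM.

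Contrasts in 1 model of each genotype put sizes on these patterns, with a call at adjusted p below 0.05 and at least 2-fold. LT- and ST-HSCs had more Ifitm1 than the mean of CMP, GMP and MEP by 2.73 ± 0.68 on the log2 scale (SE) in WT (edgeR quasi-likelihood test, adjusted p = 0.00519) and by 3.02 ± 0.37 in Tet2-KO (adjusted p = 4.64e-06). Ifitm3 was higher there by 2.44 ± 0.36 in WT (edgeR adjusted p = 4.96e-05) and 2.36 ± 0.25 in Tet2-KO (adjusted p = 7.40e-07). Ifitm2 did not pass with its own counts (0.06 in WT, 0.45 in Tet2-KO), nor with those of Gm45717 added (0.69 and 0.49; edgeR adjusted p = 0.207 and 0.123). Ifitm10 was called higher in WT, a call that was lost whichever of the 4 replicate numbers was left out (edgeR adjusted p from 0.0511 up), its log2 value turning to -0.71 without WT replicate 3, and Ifitm6 and Ifitm10 were called lower in Tet2-KO, Ifitm6 not without Tet2-KO replicate 4 and Ifitm10 not without replicate 3, 4 or 5. Among all tested genes 19% were called in WT and 20.4% in Tet2-KO. Ifitm6 and Ifitm10 are not counted against these shares, so Ifitm1 and Ifitm3 are the members called in each genotype. Without WT replicate 3 the Ifitm1 value was 2.59 with an edgeR adjusted p of 0.0745, so 1 replicate number decided that WT call.

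GMPs exceeded MEPs in Ly6e by 1.56 ± 0.27 (log2, SE) in WT (edgeR adjusted p = 0.000347) and by 1.02 ± 0.39 in Tet2-KO, which was not called (adjusted p = 0.0741) but was with the replicate number as a block (0.0364). Ifitm6 was called higher in GMPs in both genotypes against a near-zero MEP level, and the call was lost in WT without replicate 4 or 5 and in Tet2-KO without replicate 3 or 5. The background was 14.7% of genes in WT and 15.7% in Tet2-KO.

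CLPs differed from LT- and ST-HSCs in most members. In WT, Ifitm1 was lower by -3.84 (log2; edgeR adjusted p = 0.00917), Ifitm2 by -3.10 and Ifitm3 by -4.09, and Ly6e was higher by 2.16 ± 0.24 (SE; adjusted p = 1.07e-06). In Tet2-KO the values were -3.61, -1.99, -3.04 and 1.52. The sizes depend on the scaling, as the Ly6e step from GMPs to CLPs did. Scaling factors were 0.546 to 0.709 in WT CLPs and 0.736 to 1.08 in Tet2-KO CLPs, against 0.949 to 1.18 in the other populations. With Gm45717 added, the Ifitm2 difference was -3.86 in WT and -2.08 in Tet2-KO. These 4 were called in both genotypes, where 30.5% of all genes were in WT and 26.3% in Tet2-KO; Ifitm6 and Ifitm10 are not counted against these shares. Ifitm1 lost its WT call without replicate 3 (edgeR adjusted p = 0.0577) and without replicate 5 (0.0514), and Ifitm6 lost it without any 1 of the 4 WT numbers, while Ifitm10 gained a call without replicate 3 (0.035).

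CLP libraries of 1 genotype were unlike each other in the same members. Ifitm1 was at 0.723 and 1.20 CPM in WT replicates 4 and 5 but at 275 and 165 CPM in WT replicates 2 and 3, and Ifitm3 ranged from 4.65 to 133 CPM. The summed GMP markers, 5 genes with Mpo and Elane among them, also differed: 5.06 and 29.1 CPM in WT replicates 4 and 5 against 3103 and 1256 CPM in WT replicates 2 and 3. In Tet2-KO they were 2.69 CPM in replicate 2, which had the lowest Ifitm1 of its group (15.5 CPM), and 2258 to 12145 CPM in the other 3. The order was not the same throughout, since WT replicate 5 had more Ifitm3 (60.0 CPM) than WT replicate 3 (21.3 CPM), and Tet2-KO replicate 3, with the highest GMP markers, had less Ifitm1 (170 CPM) than Tet2-KO replicate 5 (295 CPM). At least 4 of the 5 GMP markers were above the floor in each CLP library, and 1 was at the floor in WT replicate 5. The B cell markers ran from 623 CPM in Tet2-KO replicate 2 to 278327 CPM in WT replicate 3, and the T and NK cell markers from 73.4 to 1542 CPM. The 3 libraries with GMP marker sums of 2.69 to 29.1 CPM had the 3 highest Ly6e values (1047 to 1458 CPM, against 725 to 922 in the other 5) and the 3 highest of Ifitm10 (21.9 to 27.8 CPM, against 0 to 12.2). Ifitm6 was seen in the 2 libraries with the highest sums, Tet2-KO replicates 3 (12145 CPM) and 5 (4115 CPM). The part of these other cells' transcripts in the CLP levels was not tested.

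**Figure D3:**
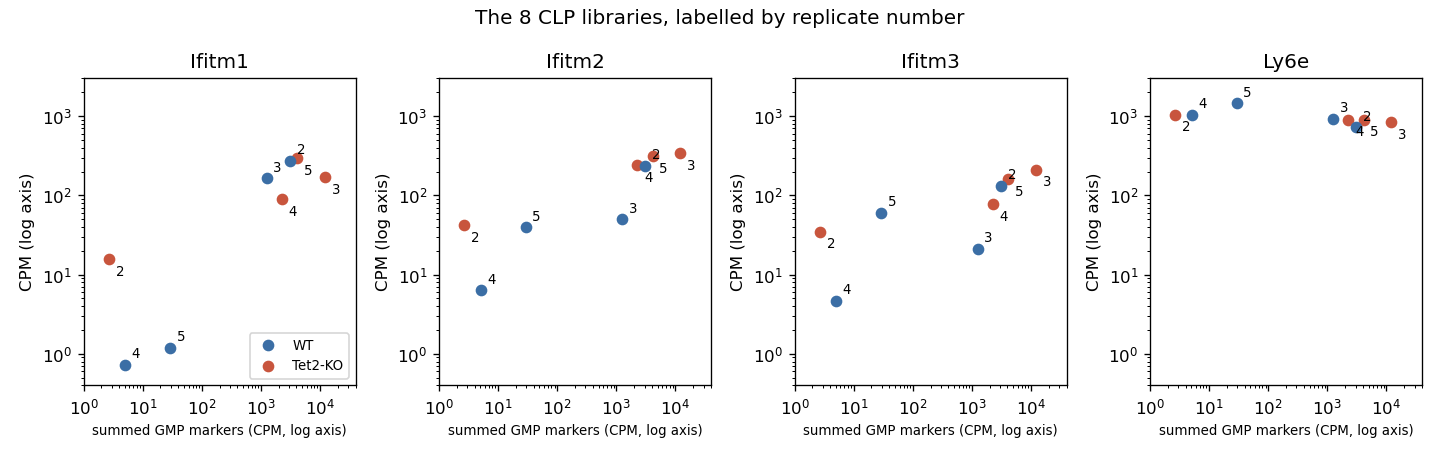
Each point is 1 of the 8 CLP libraries, labelled by replicate number, with the summed GMP markers (CPM, log axis) against the level of each gene (CPM, log axis). The 3 libraries with GMP marker sums of 2.69 to 29.1 CPM have the 3 lowest values of Ifitm1 (0.723 to 15.5 CPM), and the 3 highest of Ly6e (1047 to 1458 CPM, against 725 to 922 in the other 5).

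Over the 46 first-set libraries, the genes whose log2 CPM was most like each member's, among 8871 genes with a mean of at least 10 CPM, are given as a description, since libraries of 1 population share their profile. Ifitm1 was closest to Ifitm3 (Pearson r = 0.894), Rab38 (0.873) and Pcbd1 (0.862). Ifitm3 had Angpt1 (0.927) and Ifitm1 among its closest genes, and Ifitm2 had Rab38 (0.917) and Dctpp1 (0.912). For Ifitm6 they were Trem3 (0.885), Elane (0.843), the neutrophil elastase, and Ctsg (0.820), cathepsin G. Ifitm10 had Ikzf3 (0.806), Tcf7 (0.798) and Il2rb (0.798), which are lymphoid genes, and Ly6e had Anxa6 (0.814), Selplg (0.803) and Ms4a4b (0.801). On the log2(CPM + 1) scale, Ifitm2 summed with Gm45717 had r = 0.794 with Ifitm1 and 0.805 with Ifitm3, and Ifitm2 alone had 0.755 and 0.750.

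Loss of Tet2 was compared with WT within each population to ask whether this antiviral family moves in the mutant cells. No member was called in any of the 6 populations, where the share of all genes called was 0.0245% for LT-HSC, 0.0185% for ST-HSC, 4.57% for CMP, 4.37% for GMP, 4.36% for MEP and 0.00766% for CLP. Between 4 and 5 members passed the low-count filter in each. At an unadjusted p below 0.05 there were 0 in LT-HSCs, ST-HSCs and CLPs, 2 each in CMPs and GMPs and 1 in MEPs. Of all tested genes, 5.16% of LT-HSC, 6.13% of ST-HSC, 19.1% of CMP, 17.3% of GMP, 16.4% of MEP and 3.65% of CLP passed that threshold. DESeq2 called 0 in each population but CLPs, where it called Ifitm6, seen in the 2 of 8 libraries with the highest GMP markers, and 2.67% of all genes.

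Ly6e was higher in Tet2-KO in 5 of 6 populations, as were Ifitm2 by its own counts and Ifitm3, and none of these differences was called. The sign was not firm throughout: Ifitm3 in LT-HSCs was -0.18 with the replicate number as a block and without Tet2-KO replicate 4, and in MEPs -0.31 without Tet2-KO replicate 3. Tet2-KO GMPs had Ly6e at 499, 572, 554 and 492 CPM, all above the 4 WT libraries at 404 to 464 CPM, a log2 difference of 0.24 ± 0.09 (SE; edgeR adjusted p = 0.208; exact permutation p = 0.0286, the smallest possible); 6.98% of genes were higher without overlap in the same way. In CMPs it was at 379, 605, 476 and 351 CPM against 377, 206, 284 and 294 CPM in WT, a difference of 0.63 ± 0.21 (edgeR adjusted p = 0.132). Tet2-KO MEPs had 273, 252, 393 and 171 CPM against 106, 111, 202 and 206 CPM, a difference of 0.79 ± 0.29 (edgeR adjusted p = 0.207). The groups overlapped in CMPs and MEPs. Tet2-KO CMP libraries also had summed MEP markers of 2789 to 5614 CPM against 573 to 1557 CPM in WT, B cell markers of 64.6 to 77.8 against 122 to 187 CPM and mitochondrial counts of 7.85% to 8.37% against 5.94% to 6.57%, none of which overlapped. In GMPs the genotypes were likewise apart in LT-HSC markers (medians of 21.5 CPM in Tet2-KO and 12.5 in WT, the nearest libraries almost touching), MEP markers (114 to 170 against 82.4 to 109), B cell markers (66.6 to 81.0 against 84.5 to 123) and mitochondrial counts (4.74% to 5.09% against 3.64% to 4.60%). Mitochondrial counts in ST-HSCs were 10.0% to 13.1% in Tet2-KO and 8.73% to 9.02% in WT. The part of these in the member values was not tested. ST-HSCs had 388, 512, 226 and 217 CPM against 129, 206 and 254 CPM (0.81 ± 0.36, adjusted p = 0.845), LT-HSCs differed by 0.19 ± 0.54 (-0.18 with the replicate number as a block) and CLPs by -0.18 ± 0.30, or by 0.38 with library size alone as scaling.

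None of the 3 antiviral Ifitm genes was called in edgeR's test of Tet2-KO against WT in any population. Ifitm3 in GMPs had the smallest p, with 159, 214, 189 and 207 CPM in Tet2-KO against 168, 122, 107 and 130 CPM in WT, a difference of 0.52 ± 0.15 (log2, SE; edgeR adjusted p = 0.0664). Only 1 WT library, replicate 2, overlapped the mutants. Its adjusted p was 0.0285 with DESeq2 and 0.0214 with edgeR without that library, both short of 2-fold, and up to 0.221 on leaving out another. The GMP genotypes also differed without overlap in the markers and mitochondrial counts given for Ly6e, LT-HSC markers among them. Ifitm3 differed by 0.09 ± 0.28 in LT-HSCs, 0.17 ± 0.21 in ST-HSCs and -0.14 ± 0.09 in CMPs. Ifitm1 differed by 0.16 ± 0.25 in LT-HSCs, 0.19 ± 0.23 in ST-HSCs, -0.38 ± 0.19 in CMPs, 0.43 ± 0.22 in GMPs and -0.58 ± 0.60 in MEPs, with 95% intervals of -0.33 to 0.66 and -0.26 to 0.64 in the stem cells and -1.76 to 0.60 in MEPs. For Ifitm2 the overlapping model set the sign: in LT-HSCs its own counts gave 0.62 ± 0.32 and the sum -0.17, in ST-HSCs 0.23 and -0.34, and in MEPs 0.14 and -0.07. Without 1 library, the values by its own counts ran in LT-HSCs from 0.31 (without Tet2-KO replicate 4) to 0.81, and in ST-HSCs from 0.012 (without WT replicate 2) to 0.62 (without WT replicate 5). In CMPs the Ifitm2 difference was -0.29 ± 0.12 (edgeR unadjusted p = 0.0349, adjusted p = 0.212), or -0.30 summed. None of the 6 exact permutation tests of the Ifitm2 sum passed (p = 0.429 for LT-HSC, 0.114 for ST-HSC, 0.0571 for CMP, 0.657 for GMP, 0.771 for MEP and 0.114 for CLP). In CLPs, Ifitm2 and Ifitm3 had differences of 1.53 ± 0.98 and 1.18 ± 0.92 (edgeR), with libraries of both genotypes overlapping. Leaving out 1 library gave 1.14 to 2.83 for Ifitm2 and 0.72 to 2.03 for Ifitm3, the highest values being without WT replicate 2 and the lowest without WT replicate 4 for Ifitm2 and Tet2-KO replicate 3 for Ifitm3. B cell markers in the same libraries were 623 to 130609 CPM in Tet2-KO and 145265 to 278327 CPM in WT, with no overlap, and their part was not tested.

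Averaged over the 6 populations, 0 of 6 members were called, against 3.49% of genes. Ly6e had a mean difference of 0.41 ± 0.14 (log2, SE; edgeR adjusted p = 0.0785). Its edgeR adjusted p was 0.0409 with library size alone and 0.0298 without the CLP libraries (mean difference 0.55), both without reaching 2-fold. It ran from 0.00118 to 0.279 when 1 replicate number was left out. With the replicate number as a block the adjusted p was 0.252. That fit used limma's voom in place of edgeR, with an estimated correlation of 0.0217, so the tool changed together with the block. Averaged per replicate number over CMP, GMP, MEP and CLP, the populations that every number had, Ly6e was 8.93 in Tet2-KO and 8.53 in WT (log2 CPM, n = 4 each; exact permutation p = 0.0571). The test of whether the genotype difference varied among populations passed for Ifitm6 (edgeR adjusted p = 0.02, where 2.65% of genes passed), but it gives no support for this member, which entered the test through CMPs and GMPs, and the call was lost in 5 of 8 fits without 1 replicate number. Outside CMPs and GMPs, Ifitm6 had counts in 2 CLP, 1 LT-HSC, 1 ST-HSC and 2 MEP libraries, and without the CLP libraries the adjusted p was 0.0959.

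Ifitm7, the relative on chromosome 16, was at 6.03 to 27.6 CPM in LT-HSCs and near 0 in MEPs, and had a mean difference of 1.49 ± 0.42 (log2, SE; edgeR adjusted p = 0.0207). In GMPs, where it was at 16.5 to 24.0 CPM in Tet2-KO and 10.3 to 14.6 CPM in WT, the difference of 0.69 missed the threshold (adjusted p = 0.0524). Group means of Ifitm7 were 17.5 CPM in Tet2-KO and 12.9 in WT LT-HSCs, 7.64 and 6.60 in ST-HSCs and 8.65 and 6.94 in CMPs. The mean also holds groups near the floor, MEPs at 0.263 and 0.0317 CPM and CLPs, where Tet2-KO replicate 3 had 7.44 CPM and the other 7 libraries at most 0.312 CPM.

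Other interferon-stimulated antiviral genes gave a scale for these values. Of the list of 40, 31 of 38 tested genes were higher in Tet2-KO LT-HSCs (median log2 difference 0.52). The count was 27 of 40 for ST-HSC (0.26), 28 of 38 for CMP (0.29), 36 of 38 for GMP (0.65), 29 of 36 for MEP (0.46) and 20 of 28 for CLP (0.49), while the median of all genes was 0.03 to 0.07. The medians of the tested members were 0.18, 0.21, -0.29, 0.24, 0.11 and 0.39 in the same order, over 4 or 5 genes that include Ifitm2 with its own counts. Few genes of the list were called: Ifi44 rose by 1.30 in CMPs and 1.84 in GMPs, and Trim30a, a TRIM family gene, by 1.10 in MEPs. In LT-HSCs the smallest p values included Trim25 (1.11), a ubiquitin ligase of the RIG-I pathway, and Oasl2 (1.03), neither called. Ifit1 (0.95), Xaf1 (0.78) and Rtp4 (0.59) had that place in ST-HSCs, and Rnf213 (0.83), Lgals3bp (0.90) and Ifi27 (0.63) in GMPs. Averaged over populations, Oas3 (1.70), Eif2ak2 (1.37), the kinase PKR, Ifi44 (1.52) and Phf11d (2.84) were called, 4 of the 40, where 3.49% of all genes were called. Of these only Ifi44 was called within a single population. The list's highest value was 7.46 in LT-HSCs and 4.71 in CLPs but 1.15 in MEPs, so such a mean can rest on few populations. The same list in WT cells was also higher in LT- and ST-HSCs than in CMP, GMP and MEP, in 33 of 38 genes (15 called higher and 0 lower, median 1.07), where of all 20006 genes 1905 were called higher and 1891 lower (median 0.01), beside the 2.73 and 2.44 of Ifitm1 and Ifitm3.

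**Figure D4:**
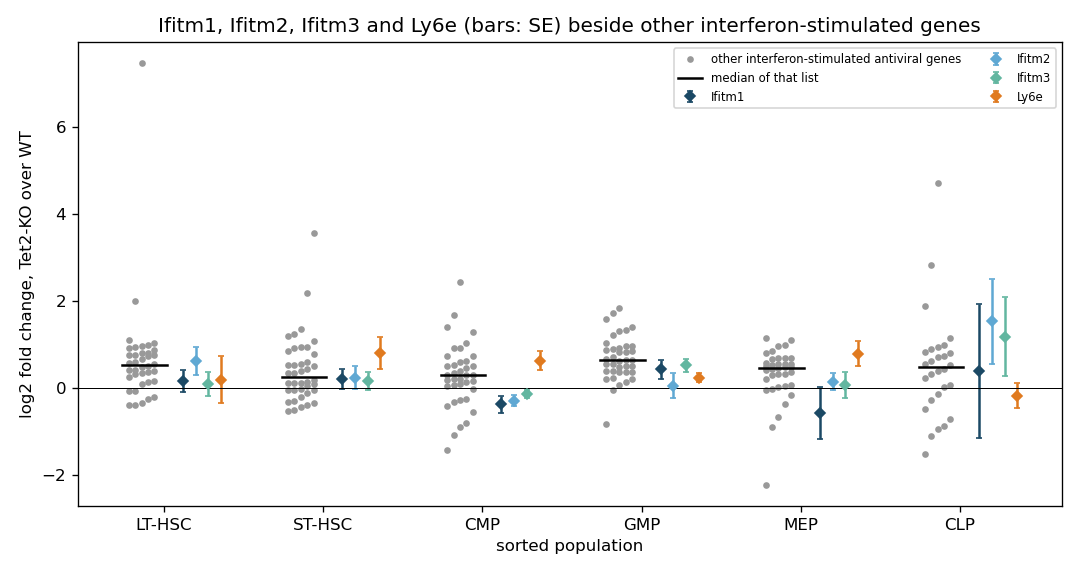
For each population, grey points are the log2 fold changes (Tet2-KO over WT) of the other interferon-stimulated antiviral genes, the black line their median, and diamonds with SE bars Ifitm1, Ifitm2, Ifitm3 and Ly6e. The list's median is 0.26 to 0.65 above 0 in each population. Ifitm1 and Ifitm3 lie within 0.2 of 0 in LT- and ST-HSCs, but their confidence intervals there include the list's medians (0.52 and 0.26). Ly6e in ST-HSCs (0.81) and Ifitm2 by its own counts in LT-HSCs (0.62) lie above the list's median. Ly6e in LT-HSCs (0.19) and Ifitm2 in ST-HSCs (0.23) lie below it.

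Of 10 genes of interferon receptors and their signalling, only 2 receptor chains were called, both lower in Tet2-KO. Most called genes were lower there as well (629 of 734 in CMPs, 672 of 723 in GMPs and 629 of 651 in MEPs, out of the 4.57%, 4.37% and 4.36% called). Ifngr2, the second chain of the interferon-gamma receptor, fell by 1.84 (log2) in CMPs (6.68 ± 1.35 CPM in Tet2-KO against 23.8 ± 3.30 in WT; SD, n = 4), by 2.07 in GMPs (14.2 ± 1.45 against 58.1 ± 6.85) and by 1.45 in MEPs (6.45 ± 1.67 against 17.5 ± 1.17). Ifnar2, the second chain of the type I receptor, fell by 1.57 in CMPs (25.9 ± 6.49 CPM against 76.0 ± 6.78) and by 1.01 in MEPs (19.3 ± 2.59 against 38.6 ± 6.45). Both receptor genes lie on another chromosome than the Ifitm cluster. Of 13 genes flanking that cluster, Ptdss2, a phosphatidylserine synthase, was called: it fell by 1.13 in GMPs (12.9 ± 2.34 CPM against 27.8 ± 8.61) and by 1.07 in MEPs (25.2 ± 3.13 against 52.8 ± 10.9).

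Of 14 Ly6 genes near Ly6e, 4 to 8 were tested for genotype in each population of the first set and none of those was called. Ly6a was at 88.3 ± 55.7 CPM (SD, n = 3) in WT LT-HSCs and 233 ± 112 in WT CLPs (n = 4), and at 1.66 ± 0.55 in WT GMPs, where Ly6e had 439 CPM. Sca1, its product, was part of the gates, so its difference between these populations is no finding. Ly6c2, a monocyte marker, was at 885 ± 285 CPM in WT GMPs and 0.207 ± 0.236 in WT LT-HSCs, and Ly6d, a B-lineage marker, at 881 ± 269 in WT CLPs and at most 0.554 on average in the other WT populations. Ly6c1 was at 14.3 ± 5.20 CPM in WT GMPs and 16.8 ± 8.96 in WT CLPs.

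The second set compared the members among WT, Sting-KO and DKO LT-HSCs. Its libraries had counts in 9380 to 11526 genes, against 17768 to 18631 in first-set LT-HSC libraries, whose table lists more genes. Over genes with a mean of at least 10 CPM, the highest correlation of log2 CPM between any 2 libraries was 0.520 here and 0.963 in the first set. The levels and gaps between groups below rest on these less alike libraries. Ifitm1 was at 2062, 2798 and 1953 CPM in WT, 4415, 4765 and 6050 CPM in Sting-KO and 4847, 6495 and 4200 CPM in DKO libraries. Every Sting-KO and DKO library lay above every WT library, and those groups overlapped each other. Against WT, Ifitm1 was higher by 1.18 ± 0.23 in Sting-KO (log2, SE; edgeR adjusted p = 0.708) and by 1.12 ± 0.26 in DKO (adjusted p = 0.126). DESeq2 gave the Sting-KO value an adjusted p of 0.0307.

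Ifitm2 was at 1269, 1719 and 1343 CPM in WT, 1982, 1971 and 2286 CPM in Sting-KO and 3158, 3131 and 2528 CPM in DKO, with no overlap between any of the groups. Ifitm3 had 735, 1668 and 998 CPM in WT, 1352, 1861 and 2056 CPM in Sting-KO and 2848, 2551 and 1976 CPM in DKO, and only the WT and DKO libraries were apart. Ly6e had 1186, 1699 and 1506 CPM in WT, 1557, 1806 and 2315 CPM in Sting-KO and 3421, 2929 and 3136 CPM in DKO, so the 3 DKO libraries were above all 6 others. Ifitm6 and Ifitm10 were at 0 in all 9 libraries.

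No member was called by edgeR against WT in Sting-KO or DKO, while DESeq2 called Ifitm1 in Sting-KO (3.76% of all genes), and Ifitm1 and Ly6e in DKO (13% of all genes). In Sting-KO 0% of genes were called by edgeR, with 357 at an unadjusted p below 0.05 and 2-fold, and 414 by DESeq2, and 2 members (Ifitm1 and Ifitm2) were higher without overlap, as 6.05% of genes were. In DKO 0.657% of genes were called, and all 4 detected members were higher without overlap, as 10.3% of genes were; 3 against 3 libraries cannot go below an exact permutation p of 0.1. Their DKO differences were 0.95 ± 0.23 for Ifitm2, 1.05 ± 0.33 for Ifitm3 and 1.04 ± 0.23 for Ly6e (log2, SE; edgeR adjusted p = 0.139, 0.204 and 0.118). A fit of all 9 libraries called 3 (Ifitm1, Ifitm2 and Ly6e) and 1.13% of all genes. Plasmacytoid dendritic cell markers were 176 to 366 CPM in DKO against 125 to 174 in WT, also without overlap. They are the sum of Siglech, Ccr9, Bst2 and Tcf4, and Bst2 is also in the list of interferon-stimulated antiviral genes. Endothelial markers were 71.7 to 123 CPM in DKO, 165 to 283 in Sting-KO and 88.2 to 170 in WT. The part of these markers was not tested. Both comparisons share the 3 WT libraries.

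Between DKO and Sting-KO, which differ in Tet2 and Cre induction, 0 members and 0.159% of genes were called. Ly6e was higher in DKO by 0.74 ± 0.21 (log2, SE; edgeR adjusted p = 0.355) and Ifitm2 by 0.50 ± 0.19 (adjusted p = 0.492), both without overlap, as were 7.18% of genes. Ifitm3 differed by 0.49 ± 0.24 and Ifitm1 by 0.03 ± 0.22, with a 95% interval of -0.40 to 0.46 for Ifitm1. Of the 40 antiviral genes, 10 of 29 tested were higher in Sting-KO than in WT, with a median of -0.42. In DKO, 16 of 30 were higher than WT (median 0.05), and 18 of 29 were higher than in Sting-KO (median 0.19). Ly6a was higher in DKO than in WT by 1.18 (edgeR adjusted p = 0.222).

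**Figure D5:**
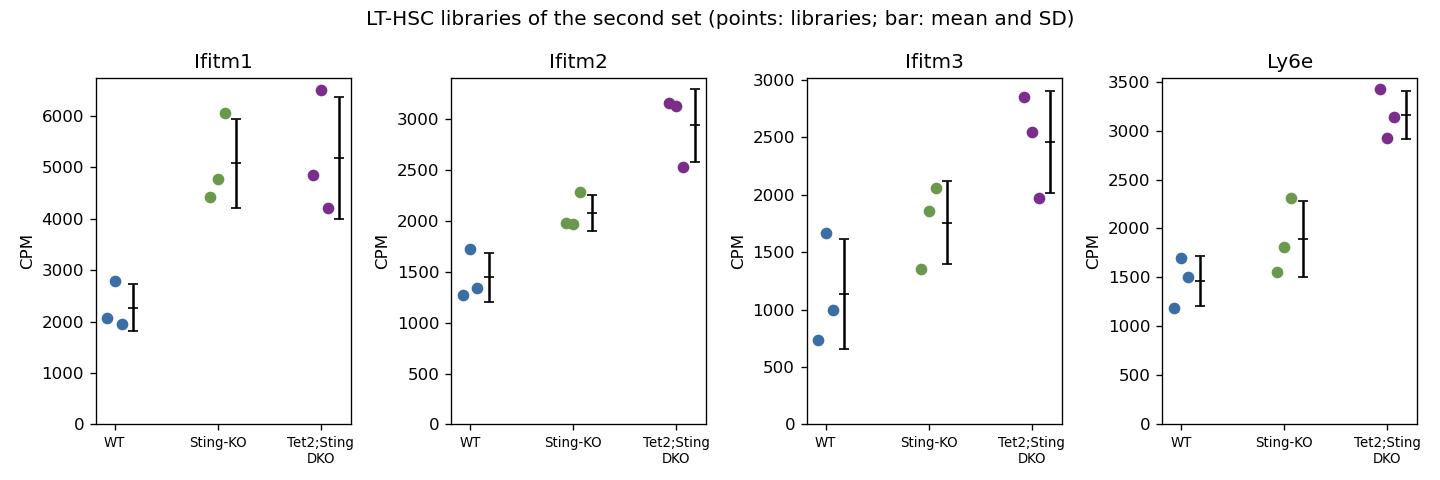
Each panel is 1 gene in LT-HSCs of the second set, with CPM per library as points and the mean and SD as bars for WT, Sting-KO and DKO. The DKO libraries of Ifitm1, Ifitm2, Ifitm3 and Ly6e lie above all 3 WT libraries, and those of Ly6e (2929 to 3421 CPM) also above all Sting-KO libraries.

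The Tet2 effect in LT-HSCs of the first set was set against the DKO effect of the second in 1 model with each set's own WT. It was smaller by 1.11 ± 0.36 for Ifitm1 (log2, SE; edgeR adjusted p = 0.111), 1.10 ± 0.45 for Ifitm3 (adjusted p = 0.181) and 1.02 ± 0.62 for Ly6e (adjusted p = 0.395). Ifitm2 gave -0.49 with its own counts and -1.28 with Gm45717 added in the first table (edgeR adjusted p = 0.614 and 0.0599). No member was called, and 2.02% of genes were. The sets differ in processing, in the number of genes detected and possibly in age, and these differences cannot be told apart from that between the genotypes.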

How the data were processed

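The authors trimmed the SMART-seq reads, mapped them to mm10 and deposited raw counts per gene in 2 tables, 1 for each set; the submitters' processing notes name Trim Galore 0.6.7, HISAT2 7.5.0, DESeq2 and the builds mm10 and mm9, and the counting program is not given in the sources used here. All 55 columns were matched to samples by name, and 3 broken lines were dropped. Whole-gene counts are not split by transcript and, for overlapping models, depend on how shared reads were counted. Genes passing edgeR's filterByExpr entered edgeR 4.0.16, under R 4.3.3 (TMM scaling, quasi-likelihood, prior count 2; calls at Benjamini-Hochberg adjusted p below 0.05 over all tested genes and at least 2-fold). Tet2-KO was compared with WT within each population, populations within each genotype, and all 46 libraries in 1 fit for mean and varying effects; 3 comparisons used the second set, and 26766 genes joined the tables. Exact tests permuted libraries. Alternatives were DESeq2 1.42.0, RLE scaling, library size alone, no filter, other call rules, a replicate block, leaving out replicates, leaving out CLPs and adding Gm45717, the last 2 and library size alone being chosen after seeing the data. The block was a term in the edgeR model, except in the fit of all 46 libraries, where it was a correlation in limma 3.58.1 (voom). The members and lists were chosen with earlier results of these data known. Named genes are the members, the 3 most correlated genes (a few are not reported here), and from the lists those called or with the smallest p. Replicates are separate libraries, described in the study as separate mice. The procedure was tested on simulated data, where 2-fold changes were not called at the spread of the LT-HSC, CLP and second-set libraries, nor nearly any 4-fold change in the latter pair, so the absence of a call there is weak. Plots used matplotlib 3.10.9 in Python 3.11.15.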

Additional observations from a re-analysis of the deposited data

Results flagged for a closer look

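In 53 groups of 4 libraries, 7 had a highest library far from the others (the gap to the next library over the group's range was above Dixon's 95% critical value; chance gives this in about 1 group in 20). Ifitm3 in Tet2-KO MEPs was one, with a ratio of 0.858: replicate 3 was at 193 CPM beside 95.1, 84.2 and 78.9 CPM. Ifitm10 in Tet2-KO CMPs had 0.86 for replicate 3 (0.323 CPM). The remaining groups had a single library above 0 and so a ratio of 1: Ifitm10 in Tet2-KO GMPs (replicate 3, 0.160 CPM), Tet2-KO MEPs (replicate 5, 0.805 CPM) and WT MEPs (replicate 4, 0.314 CPM), and Ifitm6 in Tet2-KO MEPs (replicate 4, 0.0604 CPM) and WT MEPs (replicate 4, 0.0524 CPM). These Ifitm6 values are 4 counts each.

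The test of a genotype effect that differs among the 6 populations passed for Ifitm6 (edgeR adjusted p = 0.02), a member at 0 in most libraries outside CMPs and GMPs, and did not in 5 of 8 fits without 1 replicate number. In CLPs, Tet2-KO replicates 3 and 5 had 2.53 and 13.6 CPM and the 4 WT libraries 0; these 2 libraries had the highest summed GMP markers of the 8 (12145 and 4115 CPM), whose part was not tested. In the stem cells, counts were seen in WT LT-HSC replicate 3 (1.62 CPM) and WT ST-HSC replicate 2 (1.53 CPM) and in no Tet2-KO library. In GMPs, where every library had counts, Ifitm6 was at 6.42 ± 1.11 CPM in Tet2-KO and 5.46 ± 0.78 in WT (SD, n = 4).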

How the results depend on the processing

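Under RLE scaling, DESeq2, no filter and a call rule without a fold minimum, no member value changed sign. For Tet2-KO against WT in CLPs the count of called members was 1 (Ifitm6) with DESeq2 (2.67% of all genes) and in the fit of all 46 libraries. For Sting-KO against WT it was 1 with unadjusted p and 2-fold (357 of 9967 genes) and 1 with DESeq2 (3.76%). For DKO against WT it was 3 with unadjusted p and 2-fold (1101 of 9743 genes) and 2 without the filter. It was 2 with DESeq2 (13%) and 3 in 1 fit of 9 libraries (1.13%). The share of all genes was not computed for the other counts in this paragraph, so they have no background beside them. Without the filter Ifitm10 lost its call for stem cells against CMP, GMP and MEP in WT (adjusted p = 0.054, count 2), and DESeq2 added Ifitm10 for GMPs against MEPs in WT (count 3). Without the CLP libraries the mean effect had 1 call (Ifitm6) and the varying effect 0. Leaving out 1 replicate gave 3 to 4 calls for CLPs against stem cells in WT, 2 to 5 among WT populations, 0 to 1 for the varying effect (lost without WT replicate 2, 3 or 4 and Tet2-KO replicate 3 or 5), 0 to 1 and 1 to 2 for GMPs against MEPs in Tet2-KO and WT, and 2 to 4 and 1 to 2 for stem cells against CMP, GMP and MEP.

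Of 41 reversed values, 1 (Ifitm10, stem cells against CMP, GMP and MEP in WT) had passed its test. Adding Gm45717 turned Ifitm2 to -0.17 in LT-HSCs, -0.34 in ST-HSCs and -0.071 in MEPs by its construction. With library size alone, Ifitm1 in DKO against Sting-KO was -0.047, Ifitm3 in LT-HSCs -0.0053 and Ly6e in CLPs 0.38; without CLPs the Ifitm1 mean effect was -0.014. The lowest and highest values on leaving out 1 replicate were, for Tet2-KO against WT, -0.0013 to 0.33 (Ifitm1, LT-HSC), -0.030 to 0.30 (Ifitm1, ST-HSC), -0.22 to 1.32 (Ifitm1, CLP), -0.046 to 0.25 (Ifitm1, mean), -0.14 to 0.27 (Ifitm2, GMP), -0.020 to 0.32 (Ifitm2, MEP), -0.18 to 0.23 (Ifitm3, LT-HSC), -0.31 to 0.28 (Ifitm3, MEP), -0.58 to 0.37 (Ifitm6, mean), -0.49 to 0.75 (Ifitm10, CLP), -0.85 to 0.66 (Ifitm10, mean), -0.35 to 0.031 (Ly6e, CLP) and -0.14 to 0.52 (Ly6e, LT-HSC). In the other comparisons they were -0.15 to 0.17 (Ifitm1, DKO against Sting-KO), -0.24 to 0.33 (Ifitm2) and -0.71 to 3.63 (Ifitm10) for stem cells against CMP, GMP and MEP in WT, and -2.21 to 0 in WT and -3.55 to 1.61 in Tet2-KO (Ifitm10, GMP against MEP). The cause was not tested for these.

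Replicate numbers did not pair the libraries: correlations of same-numbered WT and Tet2-KO deviations were -0.056 to 0.121, with 4 of 22 over 0.1, and -0.080 to 0.027 in the second set. Within a genotype, libraries of other populations with the same number correlated at 0.040 to 0.098 and those with other numbers at -0.039 to -0.0073, in 8 of 8 cases each, a hint from the data and not from the design. With the replicate block in edgeR, GMPs against MEPs in Tet2-KO had 2 calls (Ly6e added, edgeR adjusted p = 0.0364). The varying effect had 0 calls, in a limma voom fit where the tool changed together with the block. Ifitm10 lost 3 calls: among WT populations (adjusted p = 0.0725) and for stem cells against CMP, GMP and MEP in WT (2.54, 0.178) and Tet2-KO (-1.76, 0.0665). Ifitm6 lost that of CLPs against stem cells in WT (0.0544). In LT-HSCs the block in edgeR gave Ifitm1 -0.0078, Ifitm3 -0.18 and Ly6e -0.18, and elsewhere Ifitm2 -0.0018 (stem cells against CMP, GMP and MEP in WT). The limma voom fit gave Ifitm10 0.23 (mean). Ifitm6 and Ifitm10 rest on few counts, as does Ifitm1 in WT CLP replicates 4 and 5 (23 and 56 counts).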
